A study of Saccharomyces cerevisiae with 4 samples.

Results

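The genes described here are the 7 through which budding yeast (Saccharomyces cerevisiae) takes up, breaks down and makes proline: the proline use genes PUT1, PUT2, PUT3 and PUT4 and the proline synthesis genes PRO1, PRO2 and PRO3. They were taken by name from the gene rows of the deposited expression table, and all 7 were found among 6720 gene rows. Their levels came from sequencing total RNA of wild-type yeast, a label that does not name the strain background, grown at 30 °C in synthetic complete medium. The calorie-restricted cultures (CR) had 0.05% glucose and the non-restricted cultures (NR) 2% glucose, with 2 biological replicates, A and B, in each group. The density at harvest and the amount of proline in the medium were not stated in the labels. Where 2 values of a group follow each other, replicate A comes before replicate B. Levels are FPKM, fragments per kilobase of gene corrected for the depth of the library, so they can be compared between genes of different length. They are bulk values: a change in every cell and a change in the share of cells that carry the transcript cannot be told apart.

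As background, proline enters the cell through permeases, of which Put4 is the high-affinity one. In the mitochondrion Put1, a flavin-linked proline oxidase, turns it into pyrroline-carboxylate, and Put2, a dehydrogenase, turns that into glutamate. Put3 is a zinc cluster activator that sits on the PUT1 and PUT2 promoters and activates them when proline is present, and rich nitrogen sources hold the pathway down through the GATA factors (nitrogen catabolite repression). Synthesis runs the other way in the cytosol: Pro1, gamma-glutamyl kinase, and Pro2, gamma-glutamyl phosphate reductase, make pyrroline-carboxylate from glutamate, and Pro3 reduces it to proline. Arginine joins the route through arginase (Car1) and ornithine aminotransferase (Car2), whose product Pro3 also uses.

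The sequences upstream of PUT1 and PUT2 are shown because they hold the letters that Put3 recognises, a CGG and a CCG with 10 bases between them, which reads the same on both strands. Each stretch of 150 bases was read from the R64 genome on the strand of the gene. Capitals mark the CGG and CCG of each Put3 match and the letters of the GATA factors (GATAAG, here on the opposite strand as CTTATC). The PUT1 stretch is chrXII:424846-424995 and the PUT2 stretch chrVIII:181727-181876, both on the plus strand.
PUT1: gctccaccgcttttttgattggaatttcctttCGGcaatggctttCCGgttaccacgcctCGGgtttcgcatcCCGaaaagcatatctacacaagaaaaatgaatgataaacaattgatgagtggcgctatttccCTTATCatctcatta
PUT2: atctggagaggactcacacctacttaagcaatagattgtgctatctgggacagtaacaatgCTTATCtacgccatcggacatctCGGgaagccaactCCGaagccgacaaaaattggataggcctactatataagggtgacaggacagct

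PUT1 had 2 matches, which begin 308 and 280 nt before its start codon, and PUT2 had 1, which begins 166 nt before it. Within the 500 nt before the start codon, 2.65% of 6000 protein-coding genes held such a match, and none of PUT3, PUT4, PRO1, PRO2 and PRO3 did. GATAAG on either strand was found for PUT1 (position -205), PUT2 (-189), PRO1 (-260) and PRO3 (-111), against 22.8% of those genes. The letters of the general amino acid activator Gcn4, TGACTC on either strand, were found for PRO2, PRO3 and PUT3, against 12.65% of the genes. The 30 bases around each of these 3 matches are shown with the match, here GAGTCA, in capitals, since PRO2 and PRO3 had them in common with PUT3 and not with the other PUT genes. They lie at chrXV:923012-923041 (minus strand) for PRO2, chrV:200870-200899 (plus strand) for PRO3 and chrXI:408303-408332 (plus strand) for PUT3.
PRO2: cgttgggtcaatGAGTCAaaaaatgaaaaa
PRO3: gtgtaatatcctGAGTCActccttaaacct
PUT3: gtttatgggattGAGTCAtcggatatgtca
A match is a description of the letters and no evidence of binding. PUT4 held none of the 3 motifs in this window, and that says only that these letters are not in it.

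**Figure D1:**
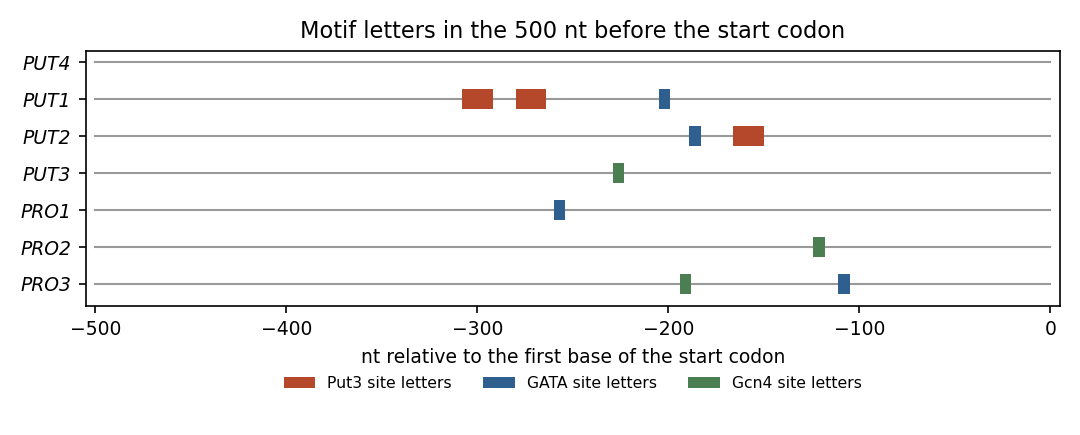
Matches to the letters of Put3, GATA factors and Gcn4 in the 500 nt before the start codon of each of the 7 genes. The horizontal axis is the distance in nt from the first base of the start codon, each line is a gene and each box a match. The 3 Put3 matches are those of PUT1 and PUT2, and the PUT4 line is empty.

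Each of the 7 rows lay at its R64 position as a single coding exon, and every 32-nt stretch of these genes is unique in the genome. The row of PRO3 overlapped another tested row, YER023C-A, by 213 nt, and without a stated use of strand their reads cannot be told apart there. YER023C-A was at 355 ± 95.5 FPKM in CR and 364 ± 69.9 FPKM in NR (mean ± SD, n = 2 each, as for all means below). The libraries were not equally alike. The median absolute gap between replicates over the tested rows was 0.36 on the log2 scale in CR and 0.18 in NR, and rows without a gene ID took 87.2% of the summed FPKM of CR B against 27.4% to 34.0% in the other libraries. Fragment totals were not used. From 5 to 7 low rows in each of the 4 libraries, 1 fragment was estimated to be worth 0.0243 to 0.0350 FPKM in a row of 1 kb. The search window of 0.02 to 0.04 bounds these estimates. They put the 7 genes at roughly 495 to 31047 fragments per library.

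CR was set against NR to ask which transcripts differ when glucose is restricted. The test was limma (linear model, moderated, two-sided) on log2(FPKM + 1) over the 6355 gene rows whose mean reached 1 FPKM, and adjusted p-values (Benjamini-Hochberg, threshold 0.05) are over all of them. Every log2 fold is CR over NR after that transformation, so folds of rows near 0 come out too small. With 2 libraries against 2, an exact permutation test cannot go below p = 0.333 (two-sided), so calls rest on the spread shared across rows. All 7 genes passed the filter on low values.

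All 4 proline use genes were higher in both CR libraries than in both NR libraries, and all 3 synthesis genes were lower. Among all tested rows, 39.2% were higher in this way and 33.8% lower. By the test, 3 of 4 proline use genes rose (PUT2, PUT3 and PUT4), where 17.7% of all tested rows did, and 1 of 3 synthesis genes fell (PRO2), where 13.2% of all tested rows did. The remaining genes, PUT1, PRO1 and PRO3, did not pass. The median log2 fold was 2.20 for the use genes and -1.20 for the synthesis genes, against 0.06 for all tested rows.

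**Figure D2:**
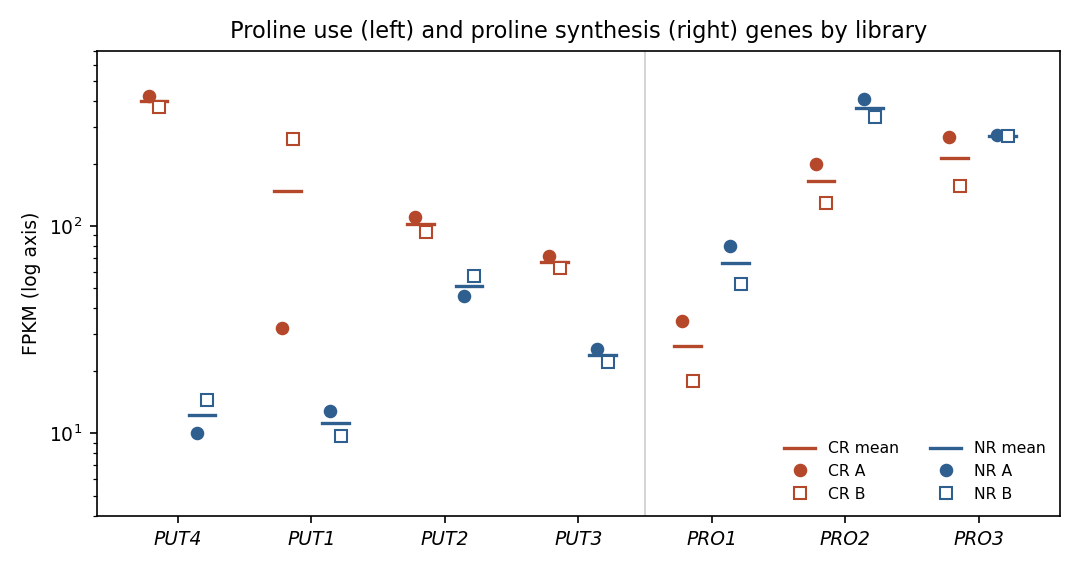
FPKM of the 7 genes in each library, on a log axis, with CR left of NR for each gene. Filled circles are replicate A, open squares replicate B and short lines the mean of the 2. The proline use genes lie higher in CR and the synthesis genes lower, with PUT1 at 32.2 and 261 FPKM in CR.

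PUT4, the high-affinity proline permease gene on the minus strand of chromosome XV (986899 to 988782, R64), had the largest fold of the 7. It was at 426 and 376 FPKM in CR, against 10.04 and 14.4 FPKM in NR. The 2 groups lay far apart and the CR libraries were close to each other. The mean was 32.7-fold higher in CR, at 401 ± 35.3 FPKM, than in NR, at 12.2 ± 3.11 FPKM, with a log2 fold of 4.94 (SE 0.24, 95% interval 4.33 to 5.55, adjusted p = 0.0014). Only 12 of 6355 rows had a larger log2 fold. In CR A and CR B the level of PUT4 was above that of 90.4% and 90.1% of tested rows, and in NR above that of 6.73% and 12.4%. The call held under all 12 alternatives tried, with log2 folds of 4.57 to 5.18.

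PUT3, the gene of the activator (chromosome XI, 408544 to 411483, plus strand), rose as well. It was at 71.4 and 62.7 FPKM in CR and at 25.4 and 22.1 FPKM in NR. These are moderate levels, and each pair of replicates was close. The mean was 2.82-fold higher in CR, with a log2 fold of 1.46 (SE 0.20, 95% interval 0.95 to 1.97, adjusted p = 0.0098). The call was lost without NR A (log2 fold 1.55, adjusted p = 0.11) and without NR B (1.36, adjusted p = 0.10), when the spread came from the CR pair alone.

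PUT2, which encodes the dehydrogenase that forms glutamate (chromosome VIII, 181977 to 183704, plus strand), rose less. It was at 110 and 93.6 FPKM in CR and at 45.9 and 57.2 FPKM in NR. The mean was 1.98-fold higher in CR, with a log2 fold of 0.97 (SE 0.22, 95% interval 0.42 to 1.53, adjusted p = 0.028). Its interval did not reach that of PUT4. The call was lost without NR A (0.82, adjusted p = 0.26), without NR B (1.13, adjusted p = 0.14) and without the filter on low values (0.97, adjusted p = 0.055).

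PUT1, the proline oxidase gene that acts first in the breakdown (chromosome XII, 425186 to 426616, plus strand), was the member on which the CR libraries disagreed. It was at 32.2 FPKM in CR A and 261 FPKM in CR B, against 12.8 and 9.69 FPKM in NR. Both CR values lay above both NR values, but CR B was 8.12-fold above CR A. The log2 fold was 2.94 (SE 0.94, 95% interval 0.56 to 5.32) and did not pass (adjusted p = 0.067). With CR A alone against the NR pair it was 1.45 (adjusted p = 0.0057) and with CR B alone 4.43 (adjusted p = 6.2e-05), fits in which the lone library is assumed to vary like the NR pair. The direction was therefore shared by both CR libraries, while the size ranged over these values.

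A gap as large as that of PUT1 between the CR libraries was rare, being found in 11 of 6355 rows (0.173%), PUT1 included. The other proline genes did not share it. PUT2, PUT3 and PUT4 were 1.18-fold, 1.14-fold and 1.13-fold higher in CR A than in CR B. On the log2 scale CR B minus CR A was -0.23, -0.18 and -0.18 for them, near the median of -0.15 over all tested rows. PUT1 has 2 matches to the Put3 letters shown above and PUT2 has 1, and any part of Put3 in the PUT1 gap was not tested. The synthesis genes were also higher in CR A, by 1.95-fold for PRO1, 1.55-fold for PRO2 and 1.73-fold for PRO3. CR B is also the library with the high share of rows without a gene ID, and the part of this in the PUT1 value was not tested.

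**Figure D3:**
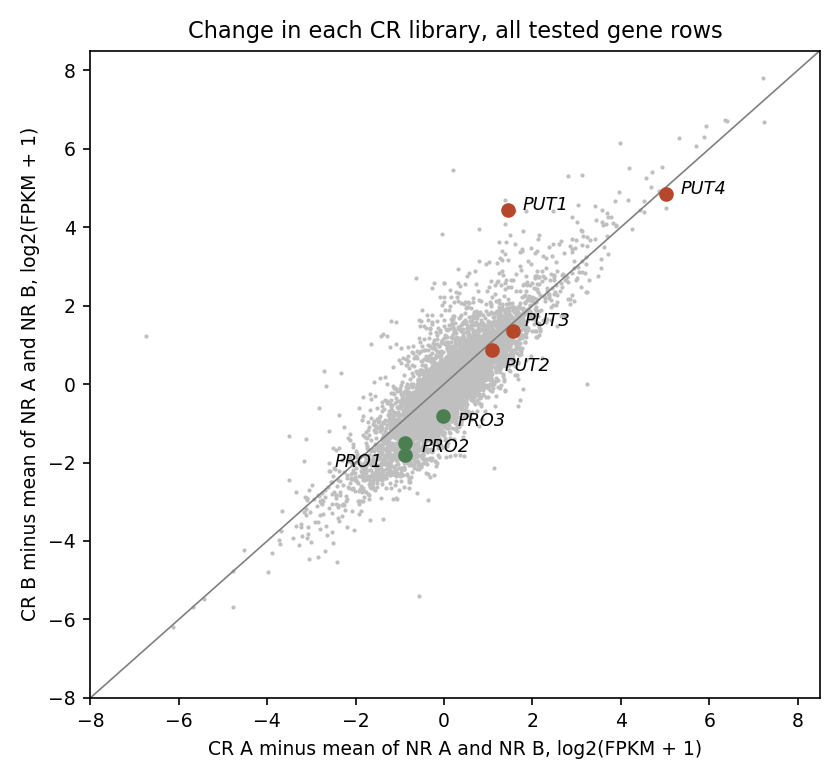
Each tested gene row by its log2(FPKM + 1) in CR A (horizontal) and CR B (vertical), both minus the mean of NR A and NR B. Grey points are all rows, red points the PUT genes and green points the PRO genes, and the line marks equal values. PUT1 lies far above the line, at 1.45 and 4.43, and PUT4 close to it, at 5.03 and 4.85.

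Of the synthesis genes, PRO2, which encodes gamma-glutamyl phosphate reductase (chromosome XV, 921535 to 922905, minus strand), fell. It was at 199.9 and 129 FPKM in CR and at 409.8 and 335 FPKM in NR. The groups did not overlap, and the mean in CR was 0.442 times that in NR. The log2 fold was -1.20 (SE 0.29, 95% interval -1.93 to -0.47, adjusted p = 0.033). Without NR A (-1.06, adjusted p = 0.23), without NR B (-1.35, adjusted p = 0.15) and without the filter on low values (-1.20, adjusted p = 0.067) the call was lost.

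PRO1, the gene of gamma-glutamyl kinase, the first enzyme of the route (chromosome IV, 1061505 to 1062791, minus strand), was the least abundant synthesis gene in each library. It was at 34.9 and 17.9 FPKM in CR and at 79.9 and 52.6 FPKM in NR. The log2 fold was -1.34 (SE 0.39, 95% interval -2.31 to -0.37), larger in size than that of PRO2, but it just missed the threshold (adjusted p = 0.051). It passed as lower with equal library medians (-1.47, adjusted p = 0.025), after quantile normalization (-1.39, adjusted p = 0.026) and with a filter at 10 FPKM (-1.34, adjusted p = 0.048). It did not pass with no filter on low values (adjusted p = 0.12), without the intensity trend (adjusted p = 0.056), with either other pseudocount or without either NR library. The log2 fold was -1.80 without CR A, -0.88 without CR B, -1.04 without NR A and -1.64 without NR B.

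PRO3, which encodes pyrroline-carboxylate reductase and ends the route (chromosome V, 201076 to 201936, plus strand), differed least. It was at 268 and 155 FPKM in CR and at 274 and 271 FPKM in NR. CR A lay just under the NR pair, and only CR B was clearly lower. The log2 fold was -0.42 (SE 0.31, 95% interval -1.21 to 0.37) and did not pass (adjusted p = 0.34). It was -0.81 without CR A and -0.024 without CR B. The interval holds both no change and a fall as large as that of PRO2.

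Ratios of 2 genes within a library do not depend on how that library was scaled. The ratio of PRO2 to PRO1 was 5.73 and 7.23 in CR and 5.13 and 6.37 in NR, so these neighbours in the route held nearly the same proportion. PRO3 stood differently: it was 1.34 and 1.20 times PRO2 in CR, but 0.669 and 0.810 times PRO2 in NR. The last gene of synthesis was thus the most abundant of the 3 in CR, and PRO2 was in NR.

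The proportion between use and synthesis genes differed between the groups as well. PUT2 was below PRO2 in all 4 libraries, at 0.551 and 0.724 times PRO2 in CR, against 0.112 and 0.171 times in NR. PUT4 was at 3.86 and 4.02 times PUT2 in CR, against 0.219 and 0.253 times in NR, so the permease changed place with the enzyme gene in both CR libraries. PUT1 was at 0.292 times PUT2 in CR A, which is close to its 0.279 times in NR A, while it was at 2.79 times in CR B and 0.170 times in NR B. Summed over the genes, the 4 PUT rows came to 639 and 794 FPKM in CR against 94.2 and 103 FPKM in NR. The 3 PRO rows came to 503 and 302 FPKM in CR, against 764 and 659 FPKM in NR. The PUT sum was above the PRO sum in both CR libraries and below it in both NR libraries, and PUT4 made up most of the PUT sum in CR A. Without PUT4 the PUT rows came to 214 FPKM in CR A, below the PRO sum of that library, and to 418 FPKM in CR B, above it, against 84.1 and 89.0 FPKM in NR.

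**Figure D4:**
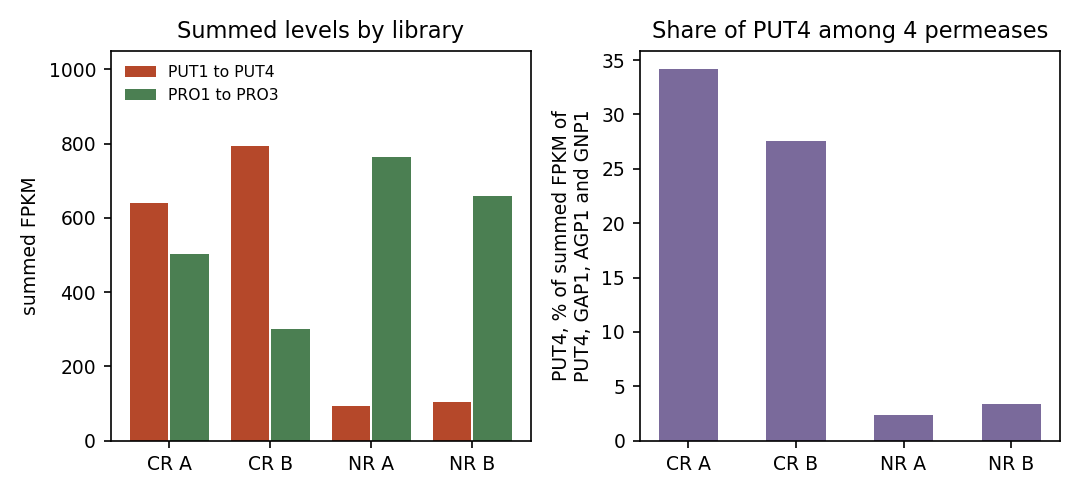
Left, summed FPKM of PUT1 to PUT4 and of PRO1 to PRO3 in each library. Right, PUT4 as a percent of the summed FPKM of PUT4, GAP1, AGP1 and GNP1. The PUT sum exceeds the PRO sum in both CR libraries and lies below it in both NR libraries, which in CR A rests on PUT4, and the PUT4 share is 34.1% and 27.6% in CR against 2.37% and 3.36% in NR.

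Proline can also enter through broader permeases, the general one Gap1 and the amino acid permeases Agp1 and Gnp1. Of these 3 genes 1 passed as higher, where 17.7% of all tested rows did. This was GAP1, at 246 and 411 FPKM in CR against 16.9 and 27.8 FPKM in NR. Its log2 fold was 3.81 (SE 0.36, adjusted p = 0.0046), and the call held under all 12 alternatives. AGP1 (log2 fold 0.90, adjusted p = 0.066) and GNP1 (0.23, adjusted p = 0.55) did not pass. The log2 fold of AGP1 ranged from 0.63 to 1.17 over the 12 alternatives. In NR, GNP1 and AGP1 made up most of the sum of the 4 permease genes, and PUT4 2.37% and 3.36% of it in NR. In CR A and CR B the PUT4 share was 34.1% and 27.6%, and the sum itself was 1247 and 1362 FPKM, against 423 and 430 FPKM in NR.

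Of 3 genes listed around the arginine route to pyrroline-carboxylate 2 were higher, where 17.7% of all tested rows were. CAR1, the arginase gene, was at 138 and 180 FPKM in CR against 26.0 and 24.2 FPKM in NR (log2 fold 2.60, SE 0.22, adjusted p = 0.0034). CAR2, the ornithine aminotransferase gene, rose 2.27-fold (log2 fold 1.13, adjusted p = 0.020). ORT1, the mitochondrial ornithine carrier gene and not an enzyme gene of this breakdown, did not pass (0.27, adjusted p = 0.30). CAR2 and PRO1 both feed the substrate of Pro3, and their ratio was 1.53 and 2.28 in CR, against 0.255 and 0.402 in NR. The CAR1 call held under all 12 alternatives, and that of CAR2 was lost without NR A (log2 fold 1.11, adjusted p = 0.18) or NR B (1.16, adjusted p = 0.15).

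At glutamate, where both proline routes meet, 2 of 6 genes rose and 1 fell, where 17.7% and 13.2% of all tested rows did. GDH2, whose NAD-linked dehydrogenase breaks glutamate down, was at 662 and 796 FPKM in CR against 63.9 and 74.4 FPKM in NR (log2 fold 3.38, SE 0.22, adjusted p = 0.0027, held under all 12 alternatives). Of the 35 genes in the wider lists, GDH2 (position -382) and BUL1 (position -227, log2 fold 0.37, adjusted p = 0.20, not passed) held the Put3 letters in the same 500 nt window. GDH3, an NADP-linked glutamate dehydrogenase gene, rose 2.06-fold (adjusted p = 0.027), and GLT1, the glutamate synthase gene, fell to 45.1 FPKM on average in CR, against 88.5 FPKM in NR (0.510 times, adjusted p = 0.048). GLN1 (log2 fold -0.89, adjusted p = 0.070), GDH1 (0.48, adjusted p = 0.38) and AGC1 (0.27, adjusted p = 0.43) did not pass. GDH2 was at 2.28 and 2.19 times GDH1 in CR, and at 0.395 and 0.223 times in NR.

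In each of the remaining lists 1 gene passed the test, which is 20.0% of a list of 5 and 12.5% of the list of 8. Of all tested rows 17.7% were called higher and 13.2% lower, so these counts are near that share. Of 5 nitrogen catabolite repression regulators GZF3, a GATA repressor gene, rose (log2 fold 1.21, adjusted p = 0.033), while GLN3 (1.10, adjusted p = 0.077), DAL80 (0.97, adjusted p = 0.086), GAT1 (-0.26, adjusted p = 0.39) and URE2 (-0.0036, adjusted p = 0.99) did not pass. The log2 fold of GLN3 was 1.58 with CR B alone against the NR pair and 0.63 with CR A alone. DAL80 was near the floor, at 1.68 and 2.22 FPKM in CR and 0.457 and 0.538 FPKM in NR. Its log2 fold therefore depended on the pseudocount, at 1.77 with 0.1 and 0.34 with 5. DAL80 passed as higher without the filter or without the intensity trend. Of 5 genes for permease export and turnover NPR1, a kinase gene that stabilises permeases, rose (1.26, adjusted p = 0.031). RSP5 (0.65, adjusted p = 0.052), SHR3 (0.36, adjusted p = 0.24), BUL1 (0.37, adjusted p = 0.20) and BUL2 (-0.22, adjusted p = 0.48) did not pass. Of 5 genes around gamma-aminobutyrate, which Put4 also carries, GAD1 rose (2.13, adjusted p = 0.0048). GAD1 encodes glutamate decarboxylase, which makes gamma-aminobutyrate and does not use it. UGA1 (0.62, adjusted p = 0.067), UGA2 (0.64, adjusted p = 0.058), UGA3 (-0.053, adjusted p = 0.90) and UGA4 (-0.73, adjusted p = 0.095) did not pass. Of 8 regulators of amino acid genes, some of the zinc cluster class of Put3 and some general, LEU3, the activator of leucine genes, fell (-0.87, adjusted p = 0.027). GCN4 was at 850 and 614 FPKM in CR and at 548 and 498 FPKM in NR and did not pass (0.47, adjusted p = 0.22). Its log2 fold was 0.70 with CR A alone and 0.23 with CR B alone.

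In the 7 wider lists together 8 of 35 genes rose (22.9%) and 2 fell (5.71%), with a median log2 fold of 0.47, where 17.7% and 13.2% of all tested rows did. The rows of CAR2, GNP1, GAT1, DAL80, DAL81 and ARG81 each overlapped another tested row, as that of PRO3 did, so reads cannot be told apart there. The ratio of CAR2 to PRO1 and the permease sums above include such rows. Without NR A or without NR B the calls of GDH3, GLT1, NPR1, GZF3, GAD1 and LEU3 were lost. With all libraries kept but no filter on low values, those of GDH3, GLT1, NPR1, GZF3 and LEU3 were lost too, and that of GLT1 also without the intensity trend (adjusted p = 0.054, range over the 12 alternatives 0.0019 to 0.25). Their highest adjusted p over the 12 alternatives was 0.21 for GDH3, 0.25 for GLT1, 0.18 for NPR1, 0.22 for GZF3, 0.079 for GAD1 and 0.22 for LEU3.

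**Figure D5:**
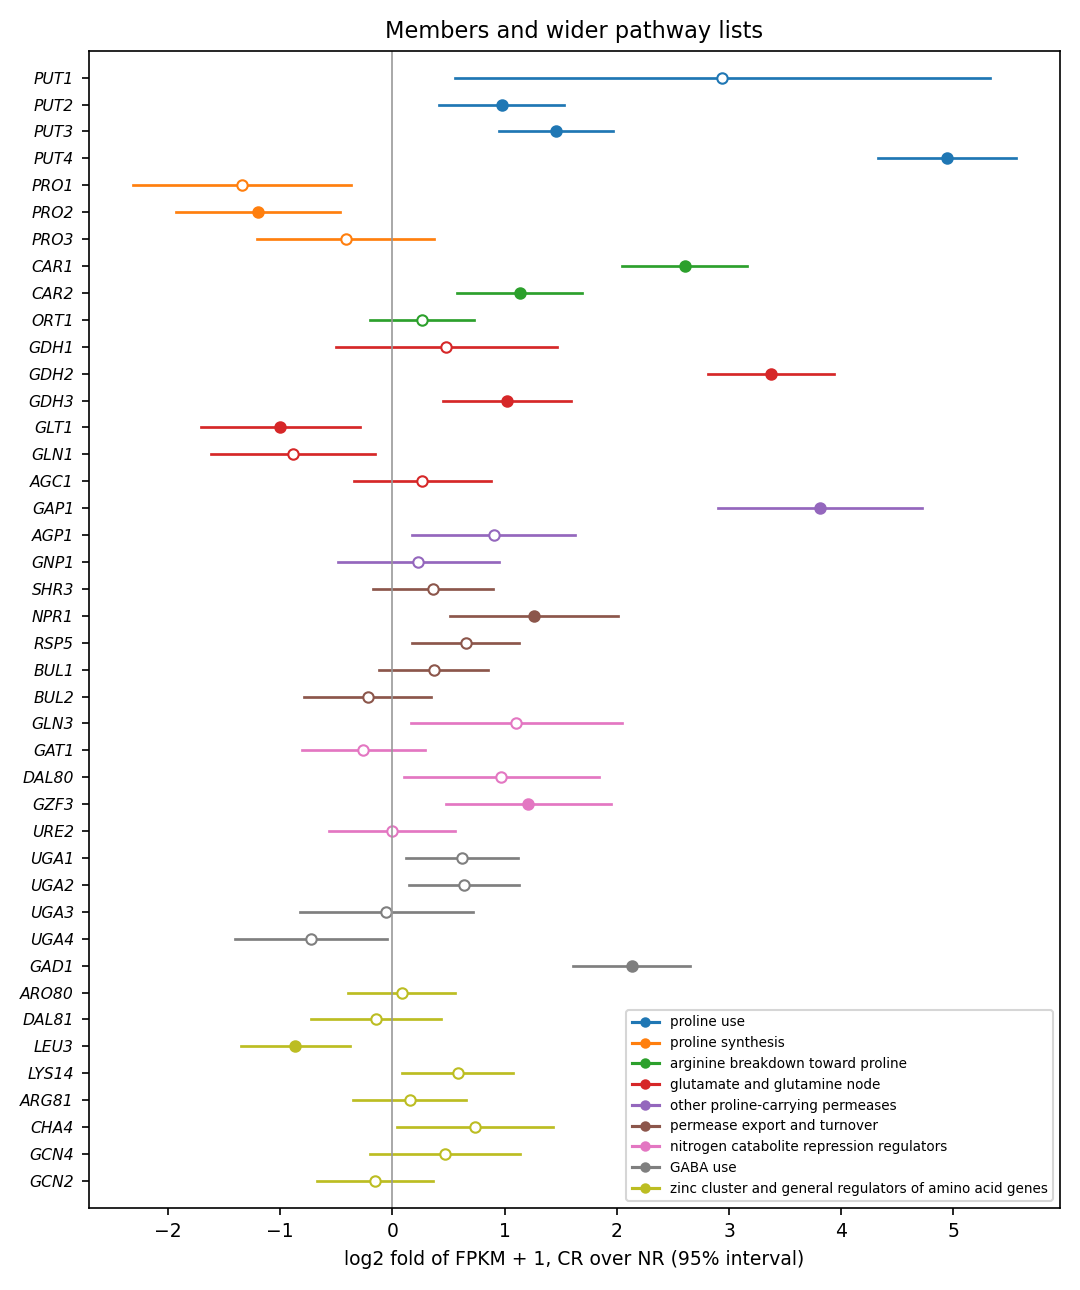
The log2 fold of FPKM + 1, CR over NR, of the 7 proline genes and of 35 genes in 7 wider lists, with lines for the 95% interval and filled points for genes past the adjusted threshold of 0.05. PUT4, GAP1, GDH2 and CAR1 lie far to the right with short intervals, and PUT1 has the longest interval, from 0.56 to 5.32.

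The rows nearest in pattern were found by the root mean square difference of log2(FPKM + 1), centred on the mean of each row over the 4 libraries, which says nothing of shared function or control. For PUT4 they were PDH1, a gene of propionate breakdown (0.097, with 1199 and 1190 FPKM in CR and 28.8 and 47.2 FPKM in NR), and YGR067C (0.17). For PUT1 they were YIL058W (0.065) and YJR120W (0.21). YIL058W was at 159 and 1136 FPKM in CR and at 60.3 and 45.3 FPKM in NR. It was chosen for its likeness to PUT1, so the gap between its CR libraries follows from that choice. Its gene ID was not found in the R64 annotation. For PUT2 they were KGD2, a subunit gene of the alpha-ketoglutarate dehydrogenase complex (0.024), and YOR223W (0.026), and for PUT3 IZH3 (0.037) and COX23 (0.048). The synthesis genes were nearest to TDA6 (0.042) and HAS1 (0.064) for PRO1, to RPL19A, a ribosomal protein gene (0.029), and CSL4 (0.032) for PRO2, and to BUD7 (0.014) and ICT1 (0.023) for PRO3.

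Of the genes within 300 nt of the members, none repeated a member's rise. BRL1, 216 nt before PUT2, was at 25.2 ± 8.97 FPKM in CR and 27.2 ± 2.31 FPKM in NR (log2 fold -0.14, adjusted p = 0.73). URB1, 135 nt from the end of PUT3 on the other strand, fell (-1.29, adjusted p = 0.043). BFR2, 273 nt from the end of PRO1 on the other strand, fell more than PRO1 was lower, to 16.6 ± 1.53 FPKM in CR against 134 ± 48.0 FPKM in NR (-2.89, adjusted p = 0.0056). SRB4, 200 nt before PRO3, was at 90.9 ± 10.5 FPKM in CR and 93.7 ± 7.78 FPKM in NR (-0.044, adjusted p = 0.88). Whether transcripts of these neighbours reach into the members was not tested.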

How the data were processed

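Total RNA of 4 libraries was measured, 2 of CR and 2 of NR, grouped by their labels. CASAVA 1.8.2, Bowtie, Cufflinks 2.0.2 and build sacCer2 are named in the submitters' processing notes, while settings, strand and the handling of multiple matches are not stated. FPKM values were deposited by the authors in 1 table with a column for each library. All 4 columns were matched by name and 0 were left over. The file positions of 5989 of 6025 gene IDs found in the RefSeq annotation equalled R64, so R64 coordinates are used. Rows without a gene ID (413) were left out.

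The fit was run with limma 3.58.1 in R 4.3.3 on log2(FPKM + 1) for the gene rows whose mean reached 1 FPKM, with an intensity trend and no covariate. The code was also run on simulated data in which CR and NR had the same spread. In the real libraries the spread between replicates was 0.46 in CR and 0.27 in NR, so that run does not measure false calls here. Python 3.11.15, pandas 2.3.3, NumPy 2.4.6 and matplotlib 3.10.9 did the rest. The members, the gene lists and the motifs were chosen with earlier results of these data known. Named genes were the members, the listed genes past the threshold, the 2 rows nearest in pattern to each member and tested rows within 300 nt; some listed genes that did not pass are named with their values, chosen after these were seen, and all 35 stand in the plot of folds. Nothing shows whether replicates were grown on separate days. The 12 alternatives were a pseudocount of 0.1 or 5, a filter at 10 FPKM or none, median scaling, quantile normalization, a replicate block, no trend, and each library left out.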

Additional observations from a re-analysis of the deposited data

How the results depend on the processing

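No alternative changed the sign of any of the 7 log2 folds, and the PUT4 call held in all 12. With all libraries kept, PUT2 (0.97) and PRO2 (-1.20) lost their calls without the filter on low values. PRO1 gained a call under median scaling (-1.47), quantile normalization (-1.39), a filter at 10 FPKM (-1.34) and the replicate block (-1.34), and PUT1 under the replicate block (2.94, adjusted p = 0.037). With all libraries kept, AGP1 of the wider lists gained a call under the replicate block (adjusted p = 0.041) and RSP5 with the 10 FPKM filter. UGA4 and DAL80 gained one without the filter on low values, and DAL80 also without the intensity trend. Fits without a CR library called more rows of the whole table than the main fit did, so a call gained there says less about a single gene. The labels do not say whether the letters A and B mark libraries grown together. The deviations of same-lettered libraries correlated at 0.083 over 6355 genes, which cannot settle that. The block gave 1150 higher and 986 lower calls, against 1126 and 836 without it. With 1 library left out, log2 folds ranged from 1.45 to 4.43 for PUT1, 0.82 to 1.13 for PUT2, 1.36 to 1.55 for PUT3, 4.70 to 5.18 for PUT4, -1.80 to -0.88 for PRO1, -1.51 to -0.89 for PRO2 and -0.81 to -0.024 for PRO3. Over all rows, such fits gave 72 to 1632 higher calls (72 without NR A, 123 without NR B) and 44 to 1656 lower calls (44 without NR A, 111 without NR B, 1656 without CR A). No filter gave 778 higher and 464 lower calls. Median scaling gave 955 higher and 1174 lower, and moved the median log2 fold of all rows to -0.07, against 0.06 as deposited. Where calls were lost without an NR library, the spread came from the CR pair, which differed more than the NR pair; other causes were not tested.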

Other observations

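Rows with a gap between CR A and CR B at least as large as that of PUT1 numbered 11, of which 8 were higher in CR B and 3 lower. The gene IDs of 7 were found in R64, which does not say that their positions agree. They were chosen after their values were seen. PUT1 was the longest of them at 1431 nt, and the others spanned 75 to 970 nt. Among them the row named USV1 was at 1659 FPKM in CR A and 16463 FPKM in CR B. That row spans only 75 nt as deposited, so its values are not read as the level of the whole USV1 transcript. The mitochondrial gene OLI1 was at 34.2 FPKM in CR A and 351 FPKM in CR B. BUD25, the row of 970 nt, was at 11.5 FPKM in CR A and 0.284 FPKM in CR B.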
